A study of Mus musculus with 30 samples.

Results

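The nuclear genome encodes most subunits of the 5 complexes of oxidative phosphorylation, and the RNA of these subunits was followed in mouse tumours after 1 injection of a masked or an unmasked form of interleukin-12. The genes were chosen by name from the deposited count table: the Nduf genes of complex I, the Sdh genes of complex II, the Uqcr genes of complex III, the Cox genes numbered 4 to 8 of complex IV and the Atp5 genes of complex V. Names marked as pseudogenes were left out, and a gene needed a mean of at least 10 counts per library. Of 24552 genes, 83 had such a name and 81 passed: 36 for complex I, 4 for complex II, 8 for complex III, 17 for complex IV and 16 for complex V. Cox8c, at 0 counts, and Ndufs5, at a mean of 0.0667 counts, were left outside. Ndufs5 encodes a complex I subunit, and how reads that match several places were counted is not given in the sources used here, so its count is not read as a level of expression. Cox6b2, at a mean of 10.9 counts, Cox7b2, at 12.4, and Cox8b, at 14.1, were just inside. All 81 passed the filter on low counts and were among the 15482 genes tested.

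The tumours grew from MC38 cells, a mouse colon carcinoma line. Female C57BL/6J mice of 10 weeks received 500000 cells under the skin of the right flank, and treatment began when tumours measured 200 to 300 cubic millimetres. One group of mice received mXTX301, the masked mouse surrogate molecule, at 0.39 mg/kg. Another received the unmasked control molecule at 0.03 mg/kg, and the last received vehicle. Each molecule was given as a single injection into a vein. Tumours were taken at day 7 or day 4, from 5 mice for each treatment and day, which gave 30 libraries of polyadenylated RNA. All groups carried the same tumour line in the same strain, so nothing in the design separates tumour cells from the host cells in a tumour.

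Oxidative phosphorylation takes electrons from NADH at complex I and from succinate at complex II, passes them through complex III and cytochrome c to oxygen at complex IV, and uses the proton gradient so formed to make ATP at complex V. Complexes I, III, IV and V also hold subunits encoded in mitochondrial DNA, whereas complex II is wholly nuclear encoded. Each of these complexes is built from catalytic core subunits, and complexes I, III and IV add smaller accessory subunits that surround and stabilise the core. Tumour cells and activated lymphocytes both depend on this machinery besides glycolysis.

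Libraries held between 48301869 and 85195518 counts in genes. The 81 genes took 0.876 ± 0.0366%, 0.86 ± 0.0271% and 0.977 ± 0.0785% of counts at day 7 in mXTX301, unmasked control and vehicle tumours, and 0.865 ± 0.0144%, 0.953 ± 0.0334% and 1.02 ± 0.118% at day 4 (SD, n = 5 each). Vehicle replicate 5 of day 4 stood apart, with 1.22% of its counts in these genes. In 12 libraries, 1 to 3 in each group, transcripts of the epidermis were high, with a mean log2 CPM over the marker genes of at least -0.41, against at most -2.47 in the other libraries. Summed T cell markers reached 47.4 to 123 CPM (counts per 1000000 counts, on TMM-scaled library sizes) with mXTX301 and 47.5 to 152 CPM with the unmasked control, against 4.17 to 7.25 CPM with vehicle, at day 7. At day 4 the same sums were 17 to 92.7 CPM, 16.9 to 45.7 CPM and 5.89 to 10.6 CPM in mXTX301, unmasked control and vehicle tumours. Summed macrophage markers were 1130 to 2150, 729 to 2150 and 284 to 779 CPM at day 7, and 502 to 1300, 571 to 939 and 397 to 564 CPM at day 4, in the same order of treatments. Summed proliferation markers were 1320 to 1530, 1340 to 1740 and 1840 to 2050 CPM at day 7, with both drugs below vehicle without overlap, and 1680 to 1960, 1560 to 1840 and 1580 to 1910 CPM at day 4. Summed endothelial markers were 91.5 to 271, 101 to 189 and 125 to 168 CPM at day 7, and 78.8 to 122, 67.7 to 91.1 and 119 to 164 CPM at day 4. The part of these markers in the changes of the subunit genes was not tested. In such bulk RNA, fewer cells of a type and less RNA per cell cannot be told apart.

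Promoters of 4 genes that fell with mXTX301 at day 4 are shown to compare windows without and with letters of known activators. Ndufa4 and Atp5g1, with the smallest p-values of all 81 in that comparison, hold none of the NRF1 or ETS letters that were searched for, while Ndufb4 and Cox6a1 hold several. Ndufb4, an accessory subunit of the membrane arm of complex I, had a log2 fold change of -0.44 with mXTX301 at day 4 (adjusted p = 0.00532) and of -0.22 (adjusted p = 0.0112) without vehicle replicate 5. NRF1 and the ETS factor GABP are long known as activators of respiratory genes. Each sequence is the 250 bases before a RefSeq start of the gene in the build GRCm38.p6 (mm10), written 5′ to 3′ on the gene's strand, which is the minus strand for all 4. For Atp5g1 that start lies inside the gene, whose RefSeq span reaches position 96075694, so part of its window is within the gene. Capitals mark matches, on either strand, to GCGC followed by any base and TGCGC (NRF1), or to CCGGAAG (ETS). The coordinates are chr6:11907451-11907700 for Ndufa4, chr11:96075632-96075881 for Atp5g1, chr16:37654369-37654618 for Ndufb4 and chr5:115348959-115349208 for Cox6a1.
Ndufa4: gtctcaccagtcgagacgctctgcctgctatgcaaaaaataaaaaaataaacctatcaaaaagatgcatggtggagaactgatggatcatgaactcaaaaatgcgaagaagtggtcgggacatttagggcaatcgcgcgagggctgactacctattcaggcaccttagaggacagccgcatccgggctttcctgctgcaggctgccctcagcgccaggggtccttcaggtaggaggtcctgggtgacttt
Atp5g1: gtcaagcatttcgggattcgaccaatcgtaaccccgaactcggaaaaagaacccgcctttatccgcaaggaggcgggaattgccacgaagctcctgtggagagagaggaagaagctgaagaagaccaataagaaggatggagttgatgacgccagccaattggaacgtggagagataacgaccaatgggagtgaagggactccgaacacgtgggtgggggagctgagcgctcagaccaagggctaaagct
Ndufb4: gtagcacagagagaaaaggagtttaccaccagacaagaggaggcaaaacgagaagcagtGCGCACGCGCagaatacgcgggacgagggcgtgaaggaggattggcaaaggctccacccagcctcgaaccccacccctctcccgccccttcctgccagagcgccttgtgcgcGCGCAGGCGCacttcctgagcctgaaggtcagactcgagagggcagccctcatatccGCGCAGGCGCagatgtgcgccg
Cox6a1: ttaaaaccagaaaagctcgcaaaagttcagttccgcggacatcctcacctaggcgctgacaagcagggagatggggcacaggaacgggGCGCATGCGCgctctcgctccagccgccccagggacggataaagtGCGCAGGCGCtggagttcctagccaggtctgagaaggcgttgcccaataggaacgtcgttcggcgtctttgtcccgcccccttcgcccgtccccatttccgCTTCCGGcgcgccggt
The Ndufb4 window holds 3 NRF1 matches and no ETS match. The Cox6a1 window holds 2 NRF1 matches and 1 ETS match, which lies on the reverse strand as its complement. A match is a description of letters and not a shown binding site.

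RefSeq start sites were available for 67 of the 81 genes. In windows of 300 bases, from 250 before to 50 after the start, the NRF1 letters stood in 15 of the 67 (22.4%), against 9.22% of 11840 promoters of tested genes. The ETS letters stood in 15 of 67 (22.4%), against 16.5% of all promoters. The YY1 letters AAGATGGCG were found in 6 subunit genes, 5 of complex I and 1 of complex V (8.96% of 67, against 2.79% of all). The nuclear receptor letters TCAAGGTCA, known from oestrogen-related receptors, were in 2 (2.99%, against 0.245%), and CCAAT boxes were in 30 (44.8%, against 38.6%). All these motifs were read on both strands and none was corrected for overlap with another. Genes with and without the NRF1 letters had nearly the same median log2 fold change with mXTX301 at day 4, at -0.32 and -0.30. For the ETS letters the medians were -0.38 with and -0.29 without.

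Levels between genes can be compared only per length, so CPM was divided by the annotated transcript length in kilobases. Atp5b, the catalytic beta subunit of ATP synthase, stood highest at 680 CPM per kilobase over all libraries, followed by Cox4i1, the ubiquitous form of the largest nuclear subunit of complex IV, at 584, and Uqcrq, a small complex III subunit, at 381. Ndufa4 led the Nduf genes at 217 CPM per kilobase. Although its name places it in complex I, its protein is now assigned to complex IV. The 4 succinate dehydrogenase genes ranged from 34.6 for Sdhc to 94 for Sdhb. Tissue-restricted isoforms lay far below their ubiquitous partners, with Cox6a2 of muscle and heart at 9.96, Cox7a1 of muscle and heart at 1.93, and the testis isoforms Cox7b2 and Cox6b2 at 0.352 and 0.321 CPM per kilobase. Cox4i2, the lung form, was at 0.788 and the muscle form Cox8b at 0.643.

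At day 4, mXTX301 tumours held less RNA of most of the subunit genes. Against vehicle, 61 of the 81 genes fell and 1 rose at an adjusted p under 0.05, with a median log2 fold change of -0.30. The 61 include Cox7b2, which met the minimum mean of 10 counts through the vehicle libraries, so its fall was favoured by that rule. Across all genes tested 16% fell and 16.2% rose, and the median was 0.01. For 78 of the 81 the fitted change was below 0. The groups did not overlap, with all mXTX301 libraries below all vehicle libraries, for 31 subunit genes, against 9.33% of all genes. Changes were tested with edgeR's quasi-likelihood test over all genes, with Benjamini-Hochberg adjustment, here and in all comparisons below.

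Vehicle replicate 5 bears on the size of this fall. The mean log2 CPM over the 81 genes was 5.65, 5.62, 5.65, 5.57 and 5.59 in mXTX301 tumours, against 5.91, 5.86, 5.87, 5.75 and 6.31 in vehicle tumours, at day 4. All 5 mXTX301 values lay below all 5 vehicle values, and the last vehicle library was the highest of the 30. Without that library 42 of 81 genes fell, 1 rose and the median was -0.19, against 12.6% of genes falling and 14% rising in the same fit. By complex, 19 of 36, 1 of 4, 5 of 8, 6 of 17 and 11 of 16 genes of complexes I to V fell in the fit without it.

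**Figure D1:**
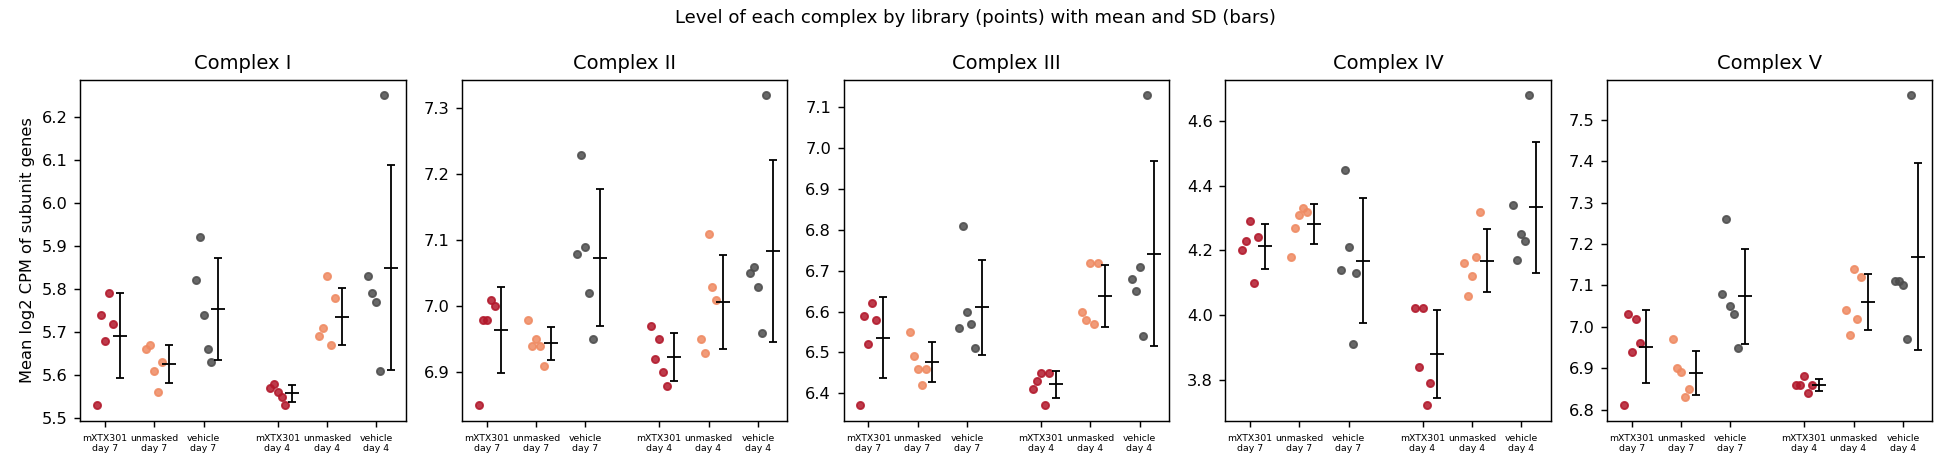
Mean log2 CPM of the subunit genes of each complex (y axis) in each of the 30 libraries (points) by treatment and day (x axis), with the group mean and SD (bars, n = 5). At day 4 the mXTX301 libraries lie lowest in complexes I and V, at 5.53 to 5.58 and 6.84 to 6.88, and one vehicle library stands far above the rest.

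In complex I, core and accessory subunits fell. Of its 36 genes 28 fell with mXTX301 at day 4 and none rose, with a median log2 change of -0.30. Of the 29 accessory genes 24 fell (median -0.32), and of the 7 core genes, which include the carriers of the flavin and iron-sulphur clusters, 4 fell (median -0.21). Genes were grouped by name. Here and below, the complex I counts therefore include Ndufa4, whose protein is now assigned to complex IV, and its paralogue Ndufa4l2. Ndufa4 had 82, 85, 83.8, 76.5 and 77.7 CPM in mXTX301 tumours, against 115, 115, 115, 105 and 181 CPM in vehicle tumours. The highest mXTX301 library lay well below the lowest vehicle library. Its log2 fold change was -0.64 (SE 0.11, adjusted p = 7.48e-05) and was -0.48 (adjusted p = 7.67e-05) without vehicle replicate 5. Ndufb6, an accessory subunit of the membrane arm, had 39.8, 44.4, 39.6, 41.7 and 40.3 CPM with mXTX301, against 53.6, 51.4, 54.6, 48.4 and 77.6 CPM with vehicle. Here too the groups did not overlap, and the log2 fold change was -0.47 (SE 0.09, adjusted p = 0.000197). Ndufb2, also of the membrane arm, fell by 0.53 on the log2 scale (SE 0.1, adjusted p = 0.000366). The core iron-sulphur subunit Ndufs8 had 47.8, 47.4, 46.7, 44.1 and 41.1 CPM with mXTX301, against 56.6, 59.5, 55, 49.7 and 75.3 CPM with vehicle, again without overlap (log2 fold change -0.38, SE 0.08, adjusted p = 0.000964). The largest core subunit, Ndufs1, did not pass the test (log2 fold change -0.04, adjusted p = 0.632). Its levels were 155, 126, 122, 133 and 132 CPM with mXTX301, against 134, 141, 138, 133 and 143 CPM with vehicle, and the groups overlapped. Ndufa6 (-0.09, adjusted p = 0.46) and the hypoxia-inducible paralogue Ndufa4l2 (0.03, adjusted p = 0.955) did not pass either.

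Complex II, which is also an enzyme of the TCA cycle, had the smallest median at day 4, -0.19. Sdhb, its iron-sulphur subunit, had 99.8, 108, 106, 95 and 93.3 CPM with mXTX301, against 113, 115, 110, 109 and 129 CPM with vehicle. The groups did not overlap, by a narrow margin (log2 fold change -0.2, SE 0.06, adjusted p = 0.0074). The membrane anchor Sdhd fell by 0.23 (SE 0.08, adjusted p = 0.0226), but the change was -0.12 and did not pass the test (adjusted p = 0.12) without vehicle replicate 5, nor did it pass without mXTX301 replicate 2 (adjusted p = 0.0555). Sdhc, the other anchor, and Sdha, the flavoprotein that holds the active site, had log2 fold changes of -0.18 (adjusted p = 0.078) and -0.06 (adjusted p = 0.245).

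In complex III, 7 of 8 genes fell at day 4, among them all 5 small subunits (median -0.47), of which 3 fell without vehicle replicate 5 (median -0.33). Uqcr10 had 64.7, 68.4, 65.3, 63.4 and 64.1 CPM with mXTX301, against 89.3, 78.6, 90.1, 74.8 and 117 CPM with vehicle. The mXTX301 values were close together and below all vehicle values (log2 fold change -0.47, SE 0.09, adjusted p = 0.000266). Uqcrq, at -0.52 (SE 0.11, adjusted p = 0.000852), and Uqcr11, at -0.51 (SE 0.1, adjusted p = 0.000358), changed by as much. Uqcrh, the hinge protein, fell by 0.34 (adjusted p = 0.0144) and did not pass without vehicle replicate 5 (adjusted p = 0.0716). Of the 2 large core proteins, Uqcrc1 fell by 0.29 (SE 0.06, adjusted p = 0.00141), while Uqcrc2 had a log2 fold change of -0.02 (adjusted p = 0.873). The difference between them was not tested.

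In complex IV, 9 of 17 genes fell, Cox7b2 among them, and 1 rose at day 4. The 11 ubiquitous subunits accounted for 7 of the falls (median -0.29). Cox6a1, the ubiquitous form of subunit VIa, had 132, 141, 136, 137 and 139 CPM with mXTX301, against 186, 177, 180, 157 and 277 CPM with vehicle, with no overlap (log2 fold change -0.51, SE 0.1, adjusted p = 0.00041). Cox4i1 had 364, 367, 368, 382 and 391 CPM with mXTX301, against 477, 462, 474, 435 and 766 CPM with vehicle, also without overlap (log2 fold change -0.48, SE 0.1, adjusted p = 0.000847). Without vehicle replicate 5 these changes were -0.36 (adjusted p = 0.000717) and -0.31 (adjusted p = 0.000844). Cox6b1 and Cox8a, other ubiquitous subunits, fell by 0.29 (adjusted p = 0.0221) and 0.26 (adjusted p = 0.0242), and neither passed without vehicle replicate 5 (adjusted p = 0.122 and 0.15). For Cox8a the call was also lost without mXTX301 replicate 3 (adjusted p = 0.0708) or replicate 4 (adjusted p = 0.0616).

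In complex V, 15 of 16 genes fell at day 4, with a median of -0.35. The exception was Atp5s, which encodes factor B, an auxiliary protein rather than a structural subunit (log2 fold change -0.17, adjusted p = 0.136). All 3 c-ring genes fell (median -0.40), as did all 3 small membrane subunits Atp5j2, Atp5k and Atp5l (median -0.43), all 4 genes of the peripheral stalk (median -0.25) and all 5 of the F1 head and central stalk (median -0.20). When vehicle replicate 5 was left out these counts were 3 of 3, 2 of 3, 4 of 4 and 2 of 5. In that fit Atp5l was at -0.13 (adjusted p = 0.305), against -0.39 with all libraries. Atp5a1 (-0.15, adjusted p = 0.0773) and Atp5c1 (-0.09, adjusted p = 0.247), of the F1 head and central stalk, did not pass. Atp5g1, the first of the c-ring genes, had 83.4, 85.1, 90.8, 82.8 and 84.2 CPM with mXTX301, against 122, 119, 118, 107 and 158 CPM with vehicle. The groups were well apart (log2 fold change -0.55, SE 0.09, adjusted p = 3.71e-05), and the change was -0.46 (adjusted p = 9.32e-05) without vehicle replicate 5. The 3 c-ring genes encode the same mature protein, and how the authors' counting placed reads that match more than one gene is not given in the sources used here. Atp5b had 1360, 1230, 1140, 1240 and 1260 CPM with mXTX301, against 1300, 1370, 1360, 1330 and 1810 CPM with vehicle. These groups overlapped, and its fall of 0.20 (SE 0.08, adjusted p = 0.0419) did not pass without vehicle replicate 5 (adjusted p = 0.224) or without any one of mXTX301 replicates 2, 3, 4 and 5 (adjusted p = 0.0609 to 0.11).

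**Figure D2:**
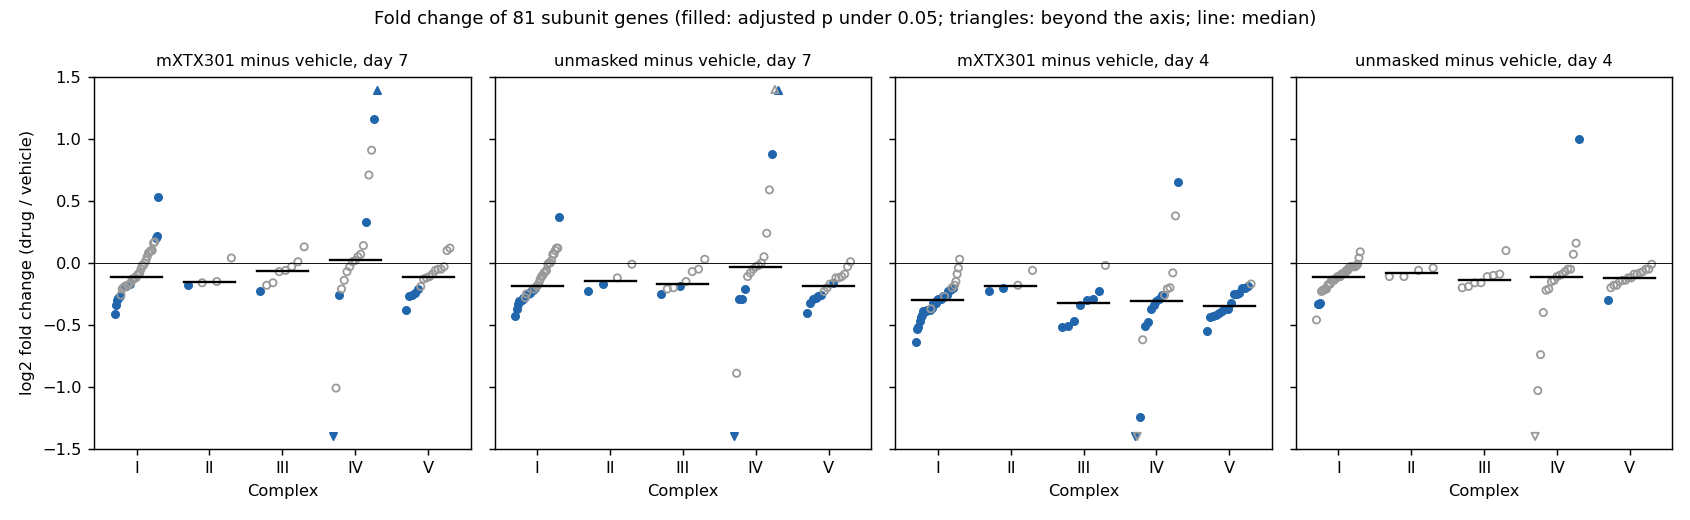
Log2 fold change of drug over vehicle (y axis) for each of the 81 genes, by complex (x axis), in 4 comparisons; filled points passed an adjusted p of 0.05, triangles lie beyond the axis and lines are medians. With mXTX301 at day 4, 61 filled points lie below 0 and 1 above, while at day 7 the filled points are fewer and lie on both sides.

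The subunit genes are short, and at day 4 the change moved with transcript length among other genes as well. The median annotated transcript of the 81 genes was 727 bases, against 2792 for all genes with a length, and 55 of 81 were under 1000 bases, against 7.54% of all. Ribosomal protein genes were set aside from the other genes here. Between 500 and 749 bases the subunit genes had a median log2 change with mXTX301 at day 4 of -0.34 (25 of 32 fell), and other genes had -0.26 (37.4% fell). Between 1000 and 1999 bases the medians were -0.21 for subunit genes (13 of 21 fell) and -0.14 for other genes (28.6% fell). At 4000 bases and over, where no subunit gene lies, other genes had a median of 0.17. Without vehicle replicate 5 the medians for 500 to 749 bases were -0.21 for subunit genes (19 of 32 fell) and -0.14 for other genes (23.2% fell). At day 7 with mXTX301 the other genes had medians between -0.06 and 0.03 in all 6 length classes. The trend was not particular to mXTX301. With the unmasked control at day 4, other genes had -0.32 under 500 bases (subunit genes -0.19) and 0.1 at 4000 and over. Without vehicle replicate 5 these medians of other genes were -0.17 and 0.06. With the unmasked control at day 7, other genes had -0.18 under 500 bases (subunit genes -0.19) and 0.07 at 4000 and over. The classes between had -0.04 to -0.01. In vehicle tumours, day 7 minus day 4, other genes had -0.21 under 500 bases (subunit genes -0.16) and 0.09 at 4000 and over. The part of transcript length in the day 4 fall, or in the changes at day 7, was not tested.

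**Figure D3:**
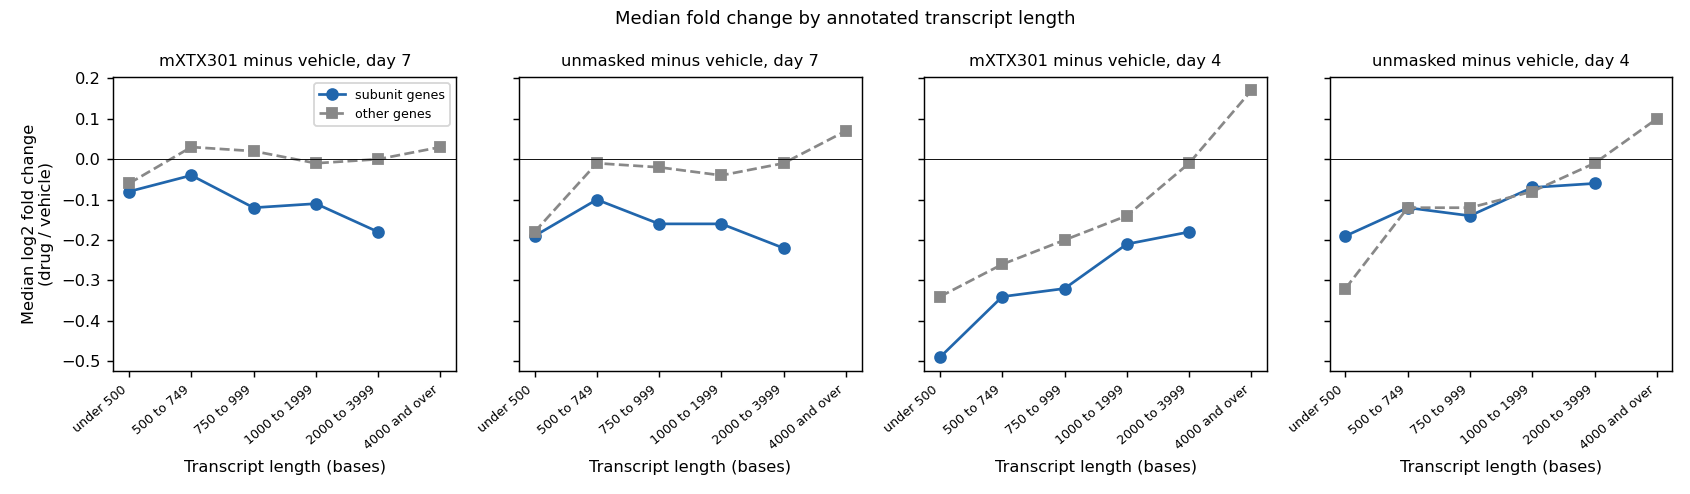
Median log2 fold change of drug over vehicle (y axis) by class of annotated transcript length (x axis) for the subunit genes (circles) and for other genes without ribosomal proteins (squares). With mXTX301 at day 4 both lines run upward with length, and the subunit genes lie below the others in each class that holds them, at -0.49 against -0.34 under 500 bases.

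Few subunit genes were called for the unmasked control at day 4. Against the same vehicle tumours 4 of 81 genes fell and 1 rose, with a median log2 fold change of -0.11, where 10.8% of all genes fell and 11.6% rose. Atp5g1 fell by 0.30 (SE 0.08, adjusted p = 0.0123), Ndufa4 by 0.33 (SE 0.11, adjusted p = 0.0256), Ndufb2 by 0.33 (SE 0.1, adjusted p = 0.0178) and Ndufb4, another membrane arm subunit, by 0.32 (SE 0.12, adjusted p = 0.048). Ndufa4 had 104, 80.3, 106, 99 and 114 CPM with the unmasked control, which overlaps its vehicle range of 105 to 181 CPM. All 4 of these falls lost the call without vehicle replicate 5, when 0 of 81 fell and 4 rose, 10 had an unadjusted p under 0.05, and the median was -0.01. In that fit 7.22% to 14.5% of other genes, without ribosomal proteins, fell in the classes of transcript length. The shares of all genes rising or with an unadjusted p under 0.05 in it are not given here. Other libraries mattered too: 1 gene fell without unmasked control replicate 2, and 2 fell without its replicate 4. Atp5g1 lost the call without replicate 2 (adjusted p = 0.0514), and Ndufa4 without replicate 2 or 4 (adjusted p = 0.0958 and 0.0509). Leaving out vehicle replicate 4 instead gave 14 falls, and the share of all genes in that fit is not given here. Both drugs share these vehicle tumours, so their changes are not independent.

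At day 7 mXTX301 tumours had called genes in both directions. Against vehicle 16 of 81 genes fell and 6 rose, with a median log2 fold change of -0.09, while 22.7% of all genes fell and 25.7% rose. The share of subunit genes that fell is close to that background, so it is no result about them as a group. The mean log2 CPM over the 81 genes was 5.65, 5.82, 5.79, 5.82 and 5.8 with mXTX301, against 5.85, 6.03, 5.83, 5.72 and 5.73 with vehicle, so the groups overlapped. The groups did not overlap in 11 falls and 3 rises, against 14.2% and 16.5% of all genes. In complex I, 7 fell and 3 rose, and in complex V, 5 of 16 fell and none rose. Complexes II and III had 1 fall each, and complex IV had 2 falls and 3 rises. All these counts, also those without overlap, include Cox7b2 as a fall and Cox6b2 as a rise. Both met the minimum of 10 counts through groups in which they were high, so their calls were favoured by that rule.

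Among the genes that fell with mXTX301 at day 7, Atp5g1 had 77.1, 97.5, 90, 85.4 and 85.1 CPM, against 114, 135, 108, 110 and 101 CPM with vehicle. The groups did not overlap (log2 fold change -0.38, SE 0.08, adjusted p = 0.000608). Ndufa4 had 76.9, 85.4, 85.5, 89.6 and 87.4 CPM with mXTX301, against 118, 131, 107, 107 and 100 CPM with vehicle, again apart (log2 fold change -0.41, SE 0.11, adjusted p = 0.00252). Sdha, the enzyme subunit that had not passed at day 4, had 194, 206, 208, 206 and 208 CPM with mXTX301, against 235, 241, 236, 225 and 219 CPM with vehicle. All mXTX301 values were below all vehicle values although the change was small (log2 fold change -0.18, SE 0.04, adjusted p = 0.000481). Uqcrc1 at -0.23 (SE 0.06, adjusted p = 0.00415), Ndufs8 at -0.28 (SE 0.08, adjusted p = 0.00582), Ndufb6 at -0.3 (SE 0.09, adjusted p = 0.0048) and Atp5b at -0.24 (adjusted p = 0.0101) were among the others that fell. Cox6a1 fell by 0.26 (adjusted p = 0.0336) and lost the call without vehicle replicate 2 (adjusted p = 0.101) or without mXTX301 replicate 1, 3 or 5 (adjusted p = 0.0555 to 0.0756). Atp5o, of the peripheral stalk, was at -0.21 (adjusted p = 0.0489) and lost the call in 5 of the 10 fits that left out 1 library, and also with the replicate number as a block (adjusted p = 0.0601).

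The largest rise in complex I was that of Ndufa6, an accessory subunit of the LYR protein family. It had 52, 52.6, 49.3, 61.6 and 53.1 CPM with mXTX301, against 40, 37.5, 38.9, 33.4 and 36.7 CPM with vehicle, at day 7. No value overlapped (log2 fold change 0.53, SE 0.08, adjusted p = 1.23e-05). With the unmasked control it had 49.9, 51, 44, 47.7 and 48.8 CPM and a log2 fold change of 0.37 (SE 0.08, adjusted p = 0.000691), likewise without overlap with vehicle. Ndufa2 (0.22, adjusted p = 0.0327), Ndufb5 (0.2, adjusted p = 0.0257) and Cox7a2l, a factor of respiratory supercomplexes (0.33, adjusted p = 0.0246), rose with mXTX301 too. The Ndufa2 call was lost in 9 of the 10 fits that left out 1 library, and the Ndufb5 and Cox7a2l calls were lost in 8 each.

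The unmasked control at day 7 gave more falls, 29 of 81 with 3 rises and a median of -0.16, where 21.8% of all genes fell and 23.2% rose. The mean log2 CPM over the 81 genes was 5.76, 5.76, 5.74, 5.71 and 5.74 with the unmasked control, against 5.85, 6.03, 5.83, 5.72 and 5.73 with vehicle. The lower 2 vehicle libraries lay within the drug range. All drug libraries lay below all vehicle libraries for 22 genes and above them for 3, against 12.8% and 12.5% of all genes. Complex I gave 14 of the falls (10 accessory and 4 core genes), complex II 2, complex III 2, complex IV 4 and complex V 7. Here too Cox7b2 is counted as a fall and Cox6b2 as a rise, both favoured by the minimum count. Atp5g1 had 91.5, 83.4, 84.5, 83.8 and 87.5 CPM with the unmasked control, below every vehicle value (log2 fold change -0.4, SE 0.08, adjusted p = 0.000475). Ndufs8 had 44.3, 42.2, 45.5, 41.8 and 42.2 CPM, against 56.8, 66.4, 54.2, 52.4 and 49.9 CPM with vehicle, and these too did not overlap (log2 fold change -0.37, SE 0.08, adjusted p = 0.000616). Sdha, with 208, 198, 213, 201 and 207 CPM, was also below its vehicle range of 219 to 241 CPM (log2 fold change -0.17, SE 0.04, adjusted p = 0.000828). Sdhc fell by 0.23 (adjusted p = 0.0161). Without vehicle replicate 2, 16 genes fell, and Sdhc, Cox4i1, Cox6a1 and Ndufb2 were among those that lost the call (adjusted p = 0.0551 to 0.0786). That is the same count as with mXTX301 at day 7, which was close to the share of all genes. The count of 29 thus rested in part on vehicle replicate 2, and the share of all genes falling without it is not given here.

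The calls at day 7 changed when the libraries rich in epidermis were left out. Summed epidermal markers, 11 of 12 of which were in the table and none of which was at 0 in a whole group, were 14.7 to 987, 6.86 to 812 and 5.5 to 870 CPM in mXTX301, unmasked control and vehicle tumours of day 7. Without the 12 libraries in which the mean log2 CPM of these markers was high, 2 of 81 genes fell and 6 rose with mXTX301 at day 7 (median -0.01), and 1 fell and 2 rose with the unmasked control (median -0.12). That left 3 mXTX301, 2 unmasked control and 2 vehicle libraries at day 7. Some fitted changes moved little although their calls were lost. With mXTX301, Ndufa4 was at -0.37, Sdha at -0.16 and Ndufs8 at -0.24 (adjusted p = 0.0788 to 0.122). Ndufs8 was at -0.35 and Sdha at -0.17 with the unmasked control (adjusted p = 0.0766 and 0.114). Others were smaller, such as Atp5b at -0.13 with mXTX301 (adjusted p = 0.441), against -0.24 with all libraries. Among all genes the same fits still gave 15.4% falling with mXTX301 and 5.82% with the unmasked control. At day 4, 55 of 81 genes fell with mXTX301 without these libraries, with a median of -0.37. The share of all genes falling at day 4 in that fit, and the shares rising at day 7, are not given here.

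**Figure D4:**
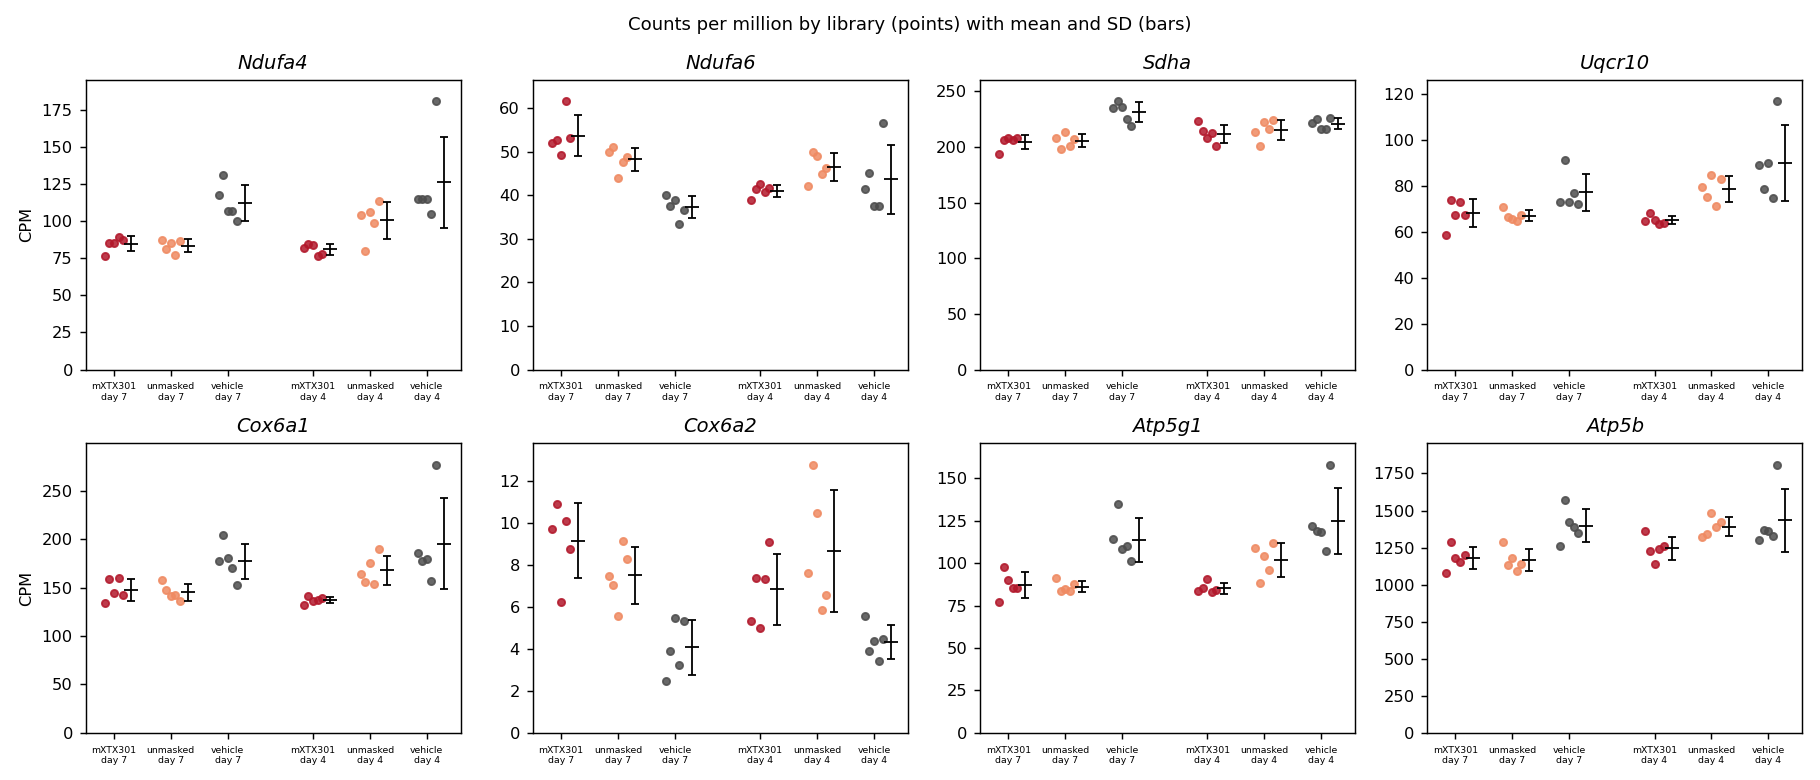
CPM (y axis, from 0) of 8 subunit genes in each library (points) by treatment and day (x axis), with group mean and SD (bars, n = 5). Atp5g1 and Ndufa4 lie lower with mXTX301 than with vehicle on both days, whereas Ndufa6 and Cox6a2 lie higher at day 7, at 49.3 to 61.6 CPM against 33.4 to 40 CPM for Ndufa6.

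The isoforms of complex IV with restricted expression gave calls in both directions. Cox6a2, the muscle and heart form of subunit VIa, had 9.73, 10.9, 6.26, 10.1 and 8.79 CPM with mXTX301 at day 7 and 7.5, 7.06, 5.58, 9.15 and 8.29 CPM with the unmasked control, against 2.47, 3.91, 5.46, 3.25 and 5.35 CPM with vehicle. Both drug groups lay above vehicle without overlap. The log2 fold changes were 1.16 (SE 0.23, adjusted p = 0.000164) with mXTX301 and 0.88 (SE 0.23, adjusted p = 0.00259) with the unmasked control. At day 4 Cox6a2 had 5.34, 7.4, 4.99, 7.36 and 9.12 CPM with mXTX301 and 7.62, 12.8, 10.5, 5.86 and 6.58 CPM with the unmasked control, against 5.58, 3.92, 4.37, 3.41 and 4.48 CPM with vehicle. The unmasked control group lay above vehicle without overlap (log2 fold change 1, SE 0.23, adjusted p = 0.00233). It did so for no other subunit gene at day 4, against 7.3% of all genes. With mXTX301 the groups overlapped, and the rise of 0.65 (SE 0.23, adjusted p = 0.0278) lost its call in 5 of the 10 fits that left out 1 library: without mXTX301 replicate 2, 4 or 5 or vehicle replicate 2 or 4 (adjusted p = 0.0593 to 0.107). Summed markers of skeletal muscle, all 12 of which were in the table, are given beside it. The library with the highest Cox6a2, unmasked control replicate 2 of day 4 at 12.8 CPM, had a muscle sum of 7.86 CPM, and the highest muscle sum, 1010 CPM, was in mXTX301 replicate 1 of day 7. Over groups the muscle sums were 7.1 to 1010, 166 to 763 and 37.6 to 217 CPM at day 7, and 8.28 to 309, 7.86 to 231 and 102 to 425 CPM at day 4, in mXTX301, unmasked control and vehicle tumours.

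The testis isoforms were counted in few reads, so counts are given. They met the minimum mean of 10 counts through groups in which they were high. Cox7b2 averaged 3.5 counts over the 20 drug libraries and 30.1 over the 10 vehicle libraries, and Cox6b2 averaged 19 counts over the 10 drug libraries of day 7 and 6.8 over the other 20. Their differences were favoured by that rule and are given as a description, without p-values. Cox7b2 had 2, 2, 7, 0 and 1 counts with mXTX301 and 3, 1, 8, 2 and 3 counts with the unmasked control at day 7, against 40, 53, 10, 38 and 9 counts with vehicle. Each vehicle library held more than each drug library, and the fitted log2 fold changes were -3.34 (SE 0.92) with mXTX301 and -2.95 (SE 0.88) with the unmasked control. At day 4 it had 3, 0, 0, 1 and 1 counts with mXTX301, against 9, 3, 4, 115 and 20 counts with vehicle (log2 fold change -4.64, SE 1.02). Most of the vehicle reads came from replicate 4. The fitted change ran from -5.57 to -3.04 when 1 library was left out. Cox6b2 had 10, 19, 21, 8 and 27 counts with mXTX301 and 17, 26, 21, 32 and 9 counts with the unmasked control at day 7, against 2, 6, 2, 2 and 8 counts with vehicle. Its log2 fold changes were 2.3 (SE 0.55) and 2.49 (SE 0.55) for mXTX301 and the unmasked control. At day 4 its log2 fold changes were 0.38 with mXTX301 and 0.07 with the unmasked control. Cox7a1, the muscle and heart form of subunit VIIa, fell with mXTX301 at day 4 by 1.24 (SE 0.43, adjusted p = 0.0278), but the change was -0.71 (adjusted p = 0.201) without vehicle replicate 5, and the call was also lost without mXTX301 replicate 1 or 4 (adjusted p = 0.0607 and 0.0782). Cox8b and Cox4i2 passed in none of the 4 comparisons with vehicle (adjusted p from 0.123 to 0.652).

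**Figure D5:**
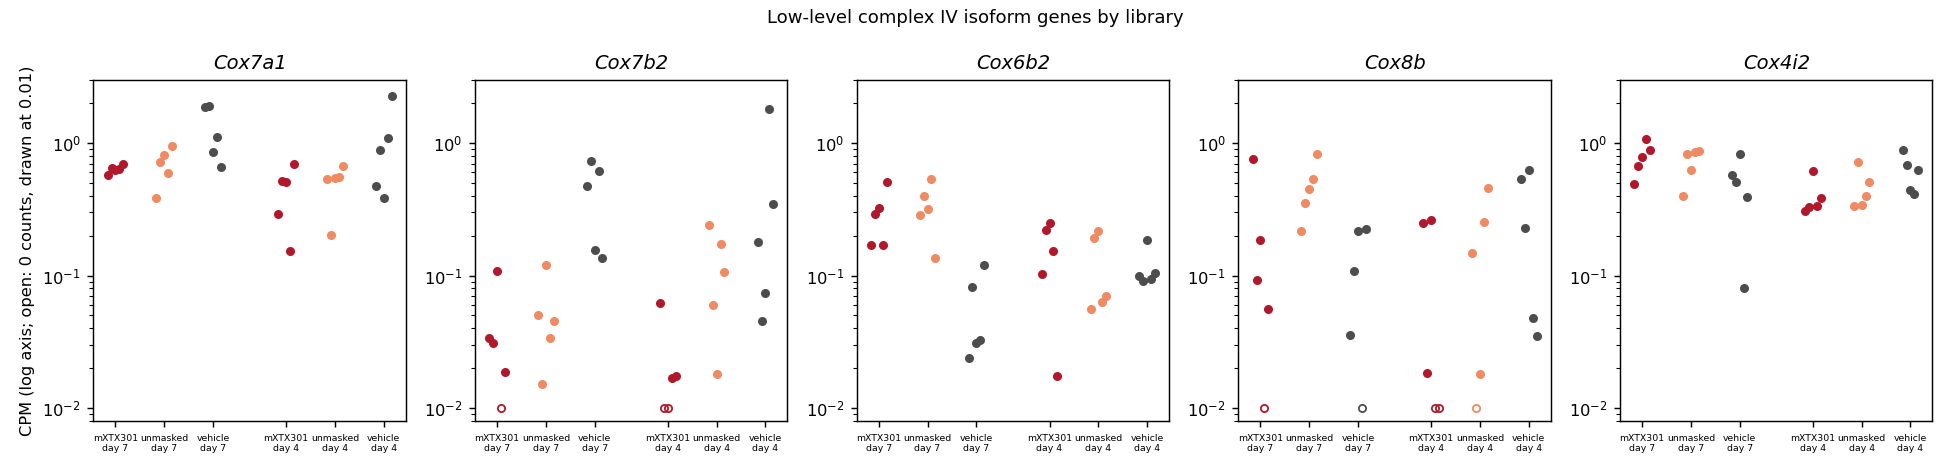
CPM (y axis, log scale; open points are 0 counts, drawn at 0.01) of 5 low isoform genes of complex IV in each library by treatment and day (x axis). At day 7 all vehicle values of Cox7b2, at 0.135 to 0.725 CPM, lie above all drug values, and for Cox6b2 the vehicle values, at 0.0238 to 0.12 CPM, lie below them.

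The drugs were compared with each other on each day. At day 7 none of the 81 genes passed the edgeR test between mXTX301 and the unmasked control, 0 had an unadjusted p under 0.05 and DESeq2 called 0 (median log2 fold change 0.07, against 0 for all genes). At day 4 none passed either, as for all 15482 genes, although 42 of 81 had an unadjusted p under 0.05, and DESeq2 called 0. Shares of all genes with an unadjusted p under 0.05 are not given here or below. The day 4 median was -0.20, against 0.01 for all genes, and 78 of 81 fitted changes were below 0. Other genes of 500 to 749 bases, without ribosomal proteins, had a median of -0.14 (subunit genes -0.22), and those of 4000 bases and over had 0.07. Of 80 cytosolic ribosomal proteins, 77 were below 0 and 52 had an unadjusted p under 0.05 (median -0.23). The shift was thus not particular to the subunit genes. For 29 subunit genes all mXTX301 libraries lay below all unmasked control libraries, against 3.44% of all genes. The summed level shows this as 5.57 to 5.65 with mXTX301 and 5.76 to 5.89 with the unmasked control, in mean log2 CPM. With the spread taken from these groups alone, 16 of the 81 fell, against 0.733% of all genes. The doses of the molecules differ, so the comparison is between treatments as given.

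Day 7 was set against day 4 within each treatment. In vehicle tumours none of the 81 genes passed the edgeR test, 13 had an unadjusted p under 0.05, DESeq2 called 1, and the median log2 change was -0.11 (-0.02 without day 4 replicate 5), with 0.0194% of all genes called in either direction alone. With mXTX301 4 genes rose and 1 fell (median 0.11), against 7.88% and 6.6% of all genes. Ndufa6 was at 52, 52.6, 49.3, 61.6 and 53.1 CPM at day 7, against 39, 41.4, 42.7, 40.7 and 41.7 CPM at day 4 (log2 change 0.39, SE 0.08, adjusted p = 0.00646). Ndufa2, an accessory subunit of the peripheral arm, was at 39.8, 47.5, 44.3, 49.6 and 49.9 CPM at day 7, against 33.9, 36.2, 39.7, 35 and 36.6 CPM at day 4 (0.35, SE 0.08, adjusted p = 0.0102). The day 7 values of both genes lay above all day 4 values, as they did for 6 of the 81 in all, against 5.67% of all genes. Uqcrh (0.36, adjusted p = 0.0247) and the core subunit Ndufs7 (0.28, adjusted p = 0.044) rose as well, and Ndufs1 fell by 0.18 (adjusted p = 0.0443). Of the 10 fits that left out 1 library, 5, 9 and 7 lost the calls of Uqcrh, Ndufs7 and Ndufs1, and 2 lost that of Ndufa2. Unmasked control tumours had 17 genes that fell and 1 that rose (median -0.13), against 11.5% and 14.4% of all genes. For 18 genes all day 7 values lay below all day 4 values, against 7.22% of all genes. Atp5b had 1290, 1130, 1180, 1090 and 1140 CPM at day 7, against 1320, 1340, 1480, 1390 and 1420 CPM at day 4, with no overlap (log2 change -0.25, SE 0.08, adjusted p = 0.0172). Uqcrq fell by 0.35 (SE 0.11, adjusted p = 0.0217) and Atp5o by 0.27 (SE 0.09, adjusted p = 0.0222). The gene counted as rising was Cox6b2 (1.45, SE 0.52), which the minimum of 10 counts let in through the drug groups of day 7, so its rise is a description. No gene fell without the epidermis-rich libraries, and 5 to 24 fell when 1 library was left out.

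The change of the drug effect between days was tested as a difference of differences. For mXTX301 the effect against vehicle at day 7 exceeded that at day 4 in 5 of 81 genes and was smaller in none (median 0.24, against 0.05 for all genes), where 1.95% of all genes were higher and 3.04% lower. All 5 are genes of complex I: Ndufa6 and Ndufa2 at 0.61 (SE 0.12, adjusted p = 0.0103 each), Ndufs6 and Ndufs7 at 0.45 (SE 0.13, adjusted p = 0.039 and 0.0439) and Ndufb5 at 0.35 (SE 0.1, adjusted p = 0.0491). The Ndufs6, Ndufs7 and Ndufb5 calls were lost in 12, 16 and 17 of the 20 fits that left out 1 library, and the other two were kept in each. Ndufa2 had 39.8 to 49.9 CPM with mXTX301 against 35.2 to 41.5 CPM with vehicle at day 7, and 33.9 to 39.7 CPM with mXTX301 against 38.3 to 59.5 CPM with vehicle at day 4. Its ranges overlapped slightly on both days, in opposite order. Without vehicle replicate 5 of day 4 the difference was called in 2 genes and the median was 0.10. With all libraries, other genes of 500 to 749 bases, without ribosomal proteins, had a median difference of 0.29 (subunit genes 0.26). Those under 500 bases had 0.24 (subunit genes 0.33). Of 80 cytosolic ribosomal proteins 23 were higher and none lower (median 0.42), so the shift was not particular to the subunit genes. For the unmasked control no gene passed the edgeR test of the difference (median -0.03), 5 had an unadjusted p under 0.05, DESeq2 called 1, and the background was 2.95% higher and 2.2% lower, 5.15% in all. Without vehicle replicate 5 of day 4, 17 genes were lower and 1 higher in this comparison, and the share of all genes in that fit is not given here.

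Genes that serve the same complexes were counted from lists chosen with earlier results known, and the shares of all genes are those given above: 16% falling and 16.2% rising with mXTX301 at day 4 and 22.7% and 25.7% at day 7, and with the unmasked control 10.8% and 11.6% at day 4 and 21.8% and 23.2% at day 7. Of 43 assembly factors, 25 fell and 1 rose with mXTX301 at day 4 (median -0.20), and 15 fell and 5 rose at day 7 (median -0.09). With the unmasked control 10 fell and 1 rose at day 4 and 16 fell and none rose at day 7. The day 4 falls numbered 17 with mXTX301 and 7 with the unmasked control without vehicle replicate 5, and without the epidermis-rich libraries the day 7 falls numbered 3 and 1. Acad9, an assembly factor of complex I, averaged 39.6 ± 1.64 CPM with mXTX301 and 47.4 ± 1.41 CPM with vehicle at day 7 (SD, n = 5 each; log2 fold change -0.26, adjusted p = 5.04e-05). Cox11, which helps insert copper into complex IV, averaged 22.4 ± 1.64 CPM with mXTX301 and 27.9 ± 1.02 CPM with vehicle (-0.32, adjusted p = 0.000155). Tmem70, needed for ATP synthase assembly, had a log2 fold change of -0.3 (adjusted p = 0.000402).

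Of 14 genes for cytochrome c and coenzyme Q synthesis 3 fell and 4 rose with mXTX301 at day 7. Coq8a, an atypical kinase of coenzyme Q synthesis, averaged 24.5 ± 7.13 CPM with mXTX301 and 63.1 ± 34 CPM with vehicle (SD, n = 5 each; log2 fold change -1.37, SE 0.3, adjusted p = 0.000586), while the methyltransferase Coq3 rose by 0.42 (adjusted p = 0.000933). Of 17 genes of the TCA cycle and pyruvate dehydrogenase, which supply NADH and succinate to the chain, 11 fell and 1 rose with each drug at day 7 (medians -0.21 with mXTX301 and -0.19 with the unmasked control), and 7 fell with mXTX301 at day 4. At day 4, 3 fell with mXTX301 without vehicle replicate 5, and without the epidermis-rich libraries 2 fell with mXTX301 and 1 with the unmasked control at day 7. Subunits of isocitrate dehydrogenase moved in opposite directions. Idh3a averaged 93.3 ± 5.27 CPM with mXTX301 and 121 ± 12.6 CPM with vehicle (-0.37, adjusted p = 0.000164), and Idh3b averaged 120 ± 7.32 CPM with mXTX301 and 92.4 ± 9.09 CPM with vehicle (0.38, adjusted p = 2.02e-05), at day 7.

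Ribosomal protein genes, which are short as well, also fell at day 4 with mXTX301. Of 78 mitochondrial ribosomal proteins, 74 fell and none rose with mXTX301 (median -0.30), and of 80 cytosolic ribosomal proteins 49 fell and none rose (median -0.29). At day 7 with mXTX301, 34 mitochondrial ones fell and 1 rose (median -0.16), whereas 2 cytosolic ones fell and 13 rose (median 0.12). With the unmasked control 33 mitochondrial and 3 cytosolic ones fell at day 4, and 45 and 5 at day 7. Without vehicle replicate 5, 55 mitochondrial and 16 cytosolic ones fell with mXTX301 at day 4, and 18 and 1 with the unmasked control. Without the epidermis-rich libraries 7 mitochondrial ones fell with mXTX301 and 5 with the unmasked control at day 7.

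Regulators of mitochondrial genes moved in both directions. At day 7, 7 of 14 fell and 4 rose with mXTX301, and 6 fell and 4 rose with the unmasked control. The coactivator Ppargc1a rose by 2.4 on the log2 scale with mXTX301 (adjusted p = 0.000501) and by 2.15 with the unmasked control (adjusted p = 0.00152), and Ppargc1b rose by 0.77 and 0.75 in the same order. Tfam, which packages and transcribes mitochondrial DNA, averaged 42.5 ± 1.27 CPM with mXTX301 and 44.4 ± 3.53 CPM with the unmasked control, against 60.2 ± 2.77 CPM with vehicle (SD, n = 5 each). The transcription factors Nrf1 and Gabpa, whose letters were read in the promoters above, had log2 fold changes of -0.21 and -0.32 with mXTX301 at day 7. Of 15 glycolysis genes 4 rose and none fell with mXTX301 at day 7 (median 0.11), a share of rises near the 25.7% of all genes, and 1 rose and 1 fell at day 4 (median -0.02).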

How the data were processed

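Bulk RNA was sequenced from 30 MC38 tumours, 5 for each treatment and day, with a TruSeq RNA kit after NucleoSpin extraction, per the labels' protocols; strandedness is not given in the sources used here. The authors deposited a table of raw counts per gene and a table of log2 CPM. Tools named in the submitters' processing notes are edgeR 3.34.0, R 4.1.0, HTSeq 0.11.1, STAR 2.7.10a, FastQC 0.11.9 and cutadapt, with mm10. The deposited log2 values were recomputed from the deposited counts for 14877 genes with a largest difference of 5e-05, and only the counts were analysed. Of 24557 gene entries, 5 with a repeated symbol were left out.

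Counts were fitted with edgeR 4.0.16 in R 4.3.3: TMM factors, filterByExpr (15482 genes), one mean per treatment and day, quasi-likelihood tests with 24 residual degrees of freedom, and Benjamini-Hochberg adjustment over all genes tested. A gene was called at an adjusted p under 0.05. CPM uses TMM-scaled library sizes, and log2 CPM a prior count of 2. Scripts were tested on simulated data. DESeq2 1.42.0, other scaling factors, no filter, a replicate block, fits on the compared groups alone, fits without the epidermis-rich libraries and fits without each library in turn were alternatives. Depth of 48301869 to 85195518 counts per library limits the low isoforms most; the common biological coefficient of variation over all genes was 27.3%.

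Replicate numbers did not pair tumours across groups: over 2000 genes the mean correlation of deviations was 0.0465 for same-numbered tumours (lowest -0.687) and -0.00421 for others. Promoters came from RefSeq on GRCm38.p6, and transcript lengths from the GENCODE annotation, taking the median principal transcript of each gene; 92.2% of tested genes had a length. Values per library are given for the 3 members with the smallest p and the largest falls and rises in each comparison with vehicle, the leading member of each complex, the Sdh genes and the isoform genes. The members and gene lists were chosen with earlier results of these data known. The grouping of subunits by role, the length classes and the motifs were chosen after values were seen.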

Additional observations from a re-analysis of the deposited data

Results flagged for a closer look

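A library was singled out where its gap to the nearest of its group exceeded Dixon's critical value for 5 samples. Of 222 groups so examined 33 were singled out, and 17 of them were vehicle replicate 5 of day 4. Chance gives about 1 in 20 for a single group. The genes and the means over them come from the same libraries and are not independent, so the 33 is not set against that share. In that library the mean log2 CPM was 6.31 over the 81 genes, 7.13 over complex III and 7.56 over complex V. Its CPM was 181 for Ndufa4, 77.6 for Ndufb6, 277 for Cox6a1, 151 for Sdhd, 766 for Cox4i1, 150 for Cox6b1 and 98.2 for Cox7a2. It was 198 for Cox7a2l, 287 for Cox8a, 103 for Uqcrh, 1810 for Atp5b, 284 for Uqcrq, 202 for Atp5o and 59.2 for Ndufs6. All of these were the highest values of their group.

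In mXTX301 tumours of day 4, replicate 3 was high for Atp5g1 at 90.8 CPM and Cox4i2 at 0.614 CPM, and replicate 1 for Cox8a at 218 CPM and Cox7b2 at 0.0619 CPM. In the unmasked control of day 4, replicate 2 was low for Cox7a1 at 0.203 CPM. In vehicle tumours of day 4, replicate 4 was high for Cox7b2 at 1.82 CPM and replicate 3 for Cox6b2 at 0.184 CPM.

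In mXTX301 tumours of day 7, replicate 1 was low, with a mean log2 CPM of 5.65 over the 81 genes and 6.85 over complex II and 194 CPM for Sdha, and high for Cox8b at 0.763 CPM. This was also the library with the highest muscle sum, 1010 CPM, and high epidermal markers. In vehicle tumours of day 7, replicate 2 was high, with 6.81 over complex III, 91.3 CPM for Uqcr10, 129 CPM for Sdhd and 146 CPM for Cox7a2l, and replicate 4 was low for Ndufa2 at 35.2 CPM.

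The effect of mXTX301 differed between days by the tested difference of differences, day 7 minus day 4, for Ndufa2 (0.61), Ndufa6 (0.61), Ndufb5 (0.35), Ndufs6 (0.45) and Ndufs7 (0.45), all on the log2 scale.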

How the results depend on the processing

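Results are counts of the 81 genes that passed the test, and log2 fold changes of named genes. The share of all genes that passed also moved between fits and is given only where stated above. The counts below are therefore not read as more or fewer than among all genes. RLE factors moved no count of calls by over 1.5 times. With upper-quartile factors 8 genes, in place of 4, fell with the unmasked control at day 4. With no low-count filter, 0 genes rose between days with the unmasked control and the mXTX301 effect was higher at day 7 in 2. With DESeq2, 1 gene was lower at day 7 in vehicle tumours, 2 rose between days with the unmasked control, and the effect was higher at day 7 in 10 genes for mXTX301 and 1 for the unmasked control.

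When the spread came from the compared groups alone, with fewer samples, 34 genes fell with mXTX301 at day 4, 0 with the unmasked control at day 4, and 16 between mXTX301 and the unmasked control at day 4. Between days 11 rose with mXTX301 and 38 fell with the unmasked control, and the mXTX301 effect was higher at day 7 in 2. Whether these counts between days exceed the share of all genes in the same fits is not shown here. Without the epidermis-rich libraries, again with fewer samples, falls numbered 2 with mXTX301 at day 7, 1 with the unmasked control at day 7 and 2 with it at day 4. Between days 8 then rose and 0 fell with mXTX301, 0 rose and 0 fell with the unmasked control, and the mXTX301 effect was higher in 10. The cause of these moves was not tested.

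The replicate block left 58 falls with mXTX301 at day 4, 15 with mXTX301 and 29 with the unmasked control at day 7, and 0 in place of 1 between days with mXTX301. The numbers did not meet the condition for pairing, a correlation over 0.1 in every pair; 9 of 30 libraries correlated best with one of their own number, where even drawing would give 6.

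Leaving out 1 library at a time gave the following ranges. With mXTX301 at day 4, 42 (without vehicle replicate 5) to 70 (without vehicle replicate 4) genes fell and 0 to 1 rose. At day 7 with mXTX301, 12 to 23 fell and 3 to 6 rose. With the unmasked control 0 to 14 fell and 1 to 4 rose at day 4, and 16 (without vehicle replicate 2) to 38 (without vehicle replicate 5) fell and 3 rose at day 7. Between days 0 to 1 fell with vehicle, 1 to 6 rose and 0 to 1 fell with mXTX301, and 0 to 2 rose and 5 (without day 7 replicate 4) to 24 (without day 7 replicate 1) fell with the unmasked control. The mXTX301 effect was higher at day 7 in 2 to 13 genes (13 without vehicle replicate 4 of day 4). The unmasked control effect was higher in 0 to 1 and lower in 0 to 17.

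Reversals of sign occurred only in named genes that had not passed the test. With mXTX301 at day 7, Cox6b1 was 0.02 and Uqcrq 0.1 without the epidermis-rich libraries, and Cox8a was 0 with RLE factors and with DESeq2 and -0.02 with no filter. With the unmasked control, Cox6b2 at day 4 was -0.02 with the replicate block. At day 7 Sdhb was 0.01, Ndufa4l2 -0.01 and Cox8a 0.02 without the epidermis-rich libraries, and Ndufs6 was 0 with RLE factors, upper-quartile factors, DESeq2 and the compared groups alone, -0.02 with no filter and -0.01 without the epidermis-rich libraries. With 1 library left out, log2 fold changes with mXTX301 at day 4 ran from -0.15 to 0.02 for Ndufa6, -0.13 to 0.17 for Ndufa4l2 and -0.14 to 0.12 for Cox7a2l. At day 7 they ran from -0.01 to 0.07 for Sdhb, -0.09 to 0.03 for Cox6b1, -0.04 to 0.05 for Cox8a and -0.45 to 1.26 for Cox8b. With the unmasked control at day 4 the ranges were -0.22 to 0.3 for Cox6b2, -0.11 to 0.05 for Sdhd, -0.14 to 0.08 for Cox6b1, -0.11 to 0.08 for Cox7a2, -0.15 to 0.03 for Cox8a, -0.16 to 0.01 for Ndufa2, -0.16 to 0.03 for Uqcrh, -0.09 to 0.05 for Atp5b, -0.23 to 0.03 for Uqcrq, -0.14 to 0.04 for Atp5o and -0.14 to 0.03 for Ndufs6. At day 7 they were -0.06 to 0.02 for Sdhb, -0.11 to 0.28 for Ndufa4l2, -0.03 to 0.1 for Uqcrh and -0.04 to 0.01 for Ndufs6. Over all alternatives, 1893 values of named genes kept their direction and side of the threshold, 97 lost and 51 gained a call and 60 changed sign. Depth limits Cox7b2, Cox6b2 and Cox8b, which have single counts in many libraries.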
